A study of Mus musculus with 6 samples.

Results

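The NADPH oxidase of phagocytes was examined through 6 of its genes, *Cybb*, *Cyba*, *Ncf1*, *Ncf4*, *Rac1*, and *Rac2*. They were taken by gene name from an array of murine bone marrow–derived macrophages (BMDMs), and together they held 8 of its 55681 probes and 6 of its 34787 names. *Cyba* and *Rac1* each had 2 probes, the other genes had 1, and the single *Rac2* probe was printed in 10 spots. All 8 probes were well above background on all 6 arrays, so no gene was lost to a filter on dim signal.

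The oxidase moves electrons from NADPH across a membrane to oxygen and so makes superoxide, which phagocytes use against ingested microbes. Its catalytic core, NOX2 (gp91phox, from *Cybb*) in complex with p22phox (from *Cyba*), sits in the membrane, while p47phox (*Ncf1*) and p40phox (*Ncf4*) wait in the cytosol and, with a Rac GTPase and further partners, join the core after a stimulus. The burst is switched on largely by phosphorylation and by loading of Rac with GTP, and the amount of each subunit also depends on transcription. Inherited loss of any of several of these subunits causes chronic granulomatous disease.

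The cells came from the bone marrow of female wild-type C57BL/6 mice (strain label C57/B6, and C57BL6/J in the methods of the study) aged 6 to 8 weeks. They had been grown for 7 days in medium conditioned by L929 cells, in every group alike. One group was left untreated, one received LPS, the TLR4 ligand, at 100 ng/ml for 4 h, and one received the USP7 inhibitor HBX41,108 at 10 μM for 30 min and then LPS (LPS+USP7i). There was no group with the inhibitor and no LPS, and whether the LPS group was given the inhibitor’s solvent is not stated in the sources used here. Each group had 2 samples from independent experiments, each on 1 Agilent array. The age is that in the sample labels, and the methods of the study give another, older range for its macrophage donors. The 100 ng/ml is the dose in the description of the series, and the treatment note of the samples gives the same figure per microliter.

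All 6 arrays shared 1 slide and 1 scan, with each group in a slide row and each replicate number in a slide column of its own, so treatment and slide row, and replicate and slide column, cannot be told apart. Each array held 59305 spots besides controls, of which 25002 to 27467 were well above background and 0 were saturated. Replicates correlated with r between 0.991 and 0.996 over the 20720 probes well above background on all arrays, and their log2 differences had an SD of 0.29 (untreated), 0.34 (LPS), and 0.40 (LPS+USP7i). All 8 macrophage markers examined (among them *Csf1r*, *Adgre1*, and *Cd68*) were well above background on all 6 arrays. Values are log2 intensities after quantile normalization, and a gene was called when its probe had an adjusted p value under 0.05 (limma, Benjamini-Hochberg over 55680 probes). With 2 arrays a group, an exact permutation test of one gene cannot give a two-sided p value below 0.333, so the limma fit over all probes carries every call.

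Among the 6 genes, *Cybb* was the one raised by LPS, while *Cybb*, *Ncf1*, and *Ncf4* were lower in LPS+USP7i than in LPS alone. Those decreases passed the threshold in 9 (*Cybb*), 13 (*Ncf1*), and 3 (*Ncf4*) of 16 alternative settings. *Ncf1* and *Ncf4* were then also below their level in untreated cells, past the threshold in 16 (*Ncf1*) and 9 (*Ncf4*) of 16 alternatives. With scaling to the 75th percentile in place of quantile normalization, *Ncf1* and *Ncf4* were also called higher with LPS. *Cyba*, *Rac1*, and *Rac2* were called in none of the 3 comparisons, though some of their differences were called under alternative settings, as given with each gene. Since RNA was taken from whole cultures, fewer cells expressing a gene and less RNA per cell cannot be told apart.

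**Figure D1:**
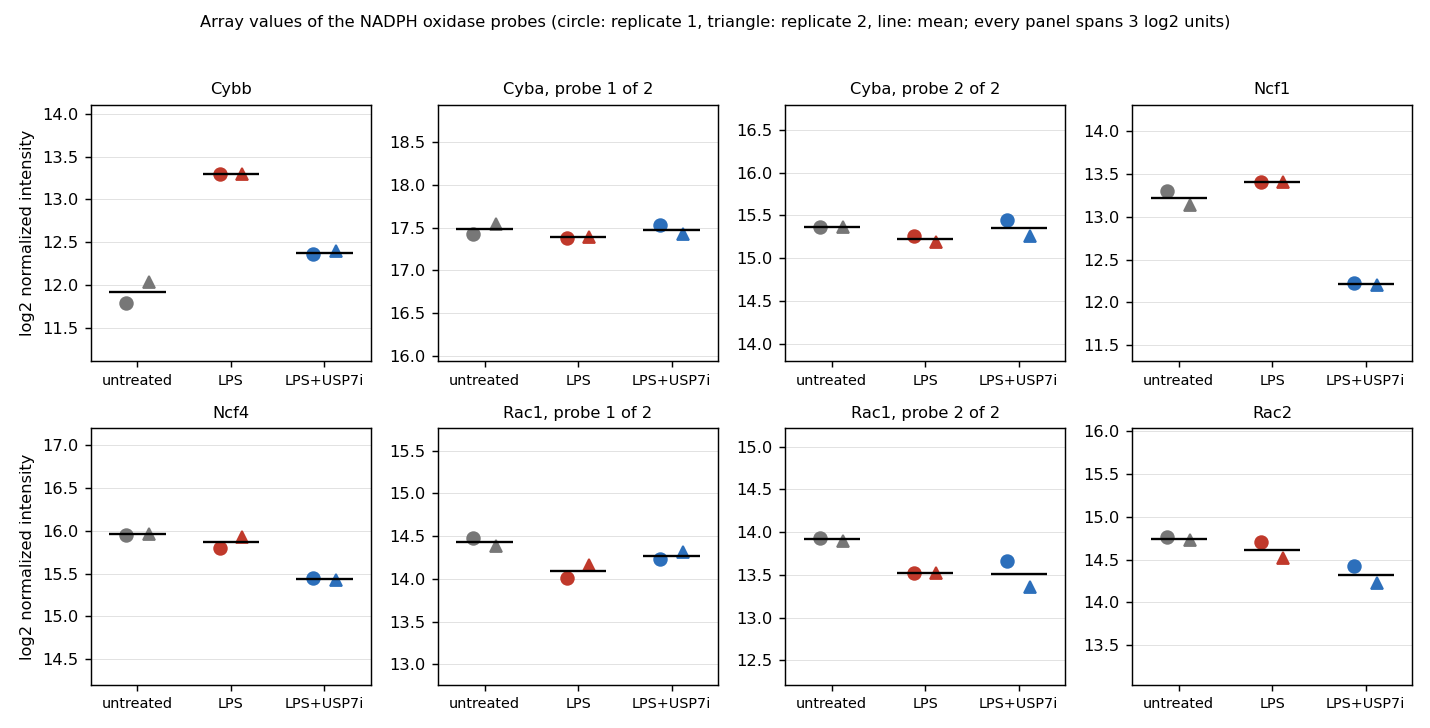
Log2 normalized intensity (vertical axis) of the 8 probes in untreated, LPS, and LPS+USP7i cells, with one circle for replicate 1, one triangle for replicate 2, a line for the mean of each group, and the same span of log2 units in every panel. *Cybb* stands at 13.30 on both LPS arrays, above the other 4 arrays, and *Ncf1* stands at 12.22 and 12.20 on the LPS+USP7i arrays, below the other 4.

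*Cybb* encodes gp91phox, the subunit that carries the flavin and the hemes through which electrons pass. Its probe lies at chrX:9013216-9013275 on the minus strand of mm9, the build named in the array files, which do not say which exon it falls in. The first 30 of its 60 bases, as printed on the array, are given here because this probe alone carries the increase with LPS.
Cybb probe, bases 1 to 30: tttccttgtctttatttttcttgcagacaa
The *Cybb* level was 11.79 and 12.04 without treatment, 13.30 and 13.30 after LPS, and 12.36 and 12.40 after LPS+USP7i. Both LPS arrays lay above all others, the inhibitor arrays lay in between, and no groups overlapped. LPS raised *Cybb* by 1.38 on the log2 scale (SE, the standard error, 0.10; adjusted p = 0.00538), a 2.61-fold increase, with 1.51 in replicate 1 and 1.26 in replicate 2. Of the probes well above background on all arrays, 7.40% had a larger positive difference than *Cybb*. The increase stayed past the threshold in all 16 alternative settings, at 1.26 to 1.78.

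With the inhibitor, *Cybb* fell by 0.92 on the log2 scale relative to LPS alone (SE 0.10, adjusted p = 0.0236), a 1.89-fold decrease, by 0.94 in replicate 1 and by 0.90 in replicate 2. It did not come back to the untreated level on either array, standing 0.47 above it (95% interval 0.18 to 0.75), which did not pass the threshold (adjusted p = 0.0674, limma, 0.0140 to 0.221 over the alternatives, past it in 5 of 16). The decrease kept its direction in all 16 alternatives, at −1.13 to −0.90, and passed the threshold in 9 of them. The call was lost whenever any 1 of the 6 arrays was left out, at differences of −0.94 to −0.90. Without an untreated array, no probe on the whole array was called for this comparison, so those fits decide nothing about *Cybb*. Without an LPS or LPS+USP7i array, 1 group compared held 1 array, and the groups with 2 arrays gave the spread.

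*Cyba* encodes p22phox, the partner that keeps gp91phox stable and docks the p47phox subunit. Its brighter probe lies at chr8:124948726-124948785 and its other probe at chr8:124950893-124951161, both on the minus strand of mm9. The 60 bases of the latter are spread over 269 bases of genome, so that it reads across at least 1 splice junction, and it is printed whole because it measures spliced message and so stands as a second, separate reading of the gene.
Cyba probe A_51_P131800: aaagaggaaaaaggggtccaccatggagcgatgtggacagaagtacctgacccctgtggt
The brighter *Cyba* probe read 17.43 and 17.54 without treatment, 17.38 and 17.40 after LPS, and 17.53 and 17.42 after LPS+USP7i. The other *Cyba* probe read 15.36 and 15.37 without treatment, 15.26 and 15.19 after LPS, and 15.45 and 15.25 after LPS+USP7i. On both probes the 2 LPS arrays were lower than the 2 untreated arrays by small amounts, and the inhibitor arrays overlapped the untreated ones.

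For the brighter *Cyba* probe, LPS minus untreated was −0.097 (95% interval −0.31 to 0.11, adjusted p = 0.521, limma), and LPS+USP7i minus LPS was 0.090 (95% interval −0.12 to 0.30, adjusted p = 0.596). The other probe gave −0.14 (adjusted p = 0.449) and 0.13 (adjusted p = 0.548) for the same comparisons. The 2 probes differed from each other by at most 0.046 in any comparison. For the brighter probe the interval of the LPS difference thus ends at an increase of 0.11, beside the increase of 1.38 seen for its membrane partner *Cybb*. With scaling to the 75th percentile in place of quantile normalization, LPS minus untreated turned positive on both *Cyba* probes, at 0.44 and 0.48, and passed the threshold (adjusted p = 0.0138 and 0.00808), under a scaling that put the median LPS difference at 0.51 over all probes and at 0.091 over the probes well above background, to which all 8 oxidase probes belong. Relative to the former they stood at −0.063 and −0.029, and relative to the latter at 0.35 and 0.39, so the sign depends on the reference. LPS+USP7i minus untreated passed as well under it, at 0.41 (adjusted p = 0.0183) and 0.40 (adjusted p = 0.0143), which is −0.13 and −0.14 relative to the median of all probes (0.55) and 0.30 and 0.29 relative to that of probes well above background (0.11).

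*Ncf1* encodes p47phox, the organizer that, once phosphorylated, carries the cytosolic complex to p22phox. Its probe lies at chr5:134696380-134696439 on the minus strand of mm9, and its first 30 bases are shown because it had the largest estimated change with the inhibitor among the 6 genes.
Ncf1 probe, bases 1 to 30: tttaaaaagagaggatatgcctccataaga
The *Ncf1* level was 13.31 and 13.14 without treatment, 13.41 and 13.40 after LPS, and 12.22 and 12.20 after LPS+USP7i. The arrays of untreated and LPS cells lay close together, and both inhibitor arrays lay far below all of them. LPS minus untreated was 0.19 (95% interval −0.034 to 0.41, adjusted p = 0.242, limma), so an increase with LPS was not called. This was not so with both scalings to the 75th percentile, where *Ncf1* passed the threshold at 0.68 (all probes) and 0.42 (probes detected on all arrays, an alternative chosen after seeing the data), which under either is 0.17 relative to the median of all probes and 0.59 relative to that of probes well above background.

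With the inhibitor, *Ncf1* fell by 1.20 on the log2 scale relative to LPS alone (SE 0.080, adjusted p = 0.0130), a 2.29-fold decrease, by 1.19 in replicate 1 and by 1.20 in replicate 2. Of the probes well above background on all arrays, 4.98% had a lower difference. It also fell by 1.01 relative to untreated cells (SE 0.080, adjusted p = 0.00897), a 2.01-fold decrease, which shares its inhibitor arrays with the comparison before. The decrease relative to LPS ranged from −1.41 to −1.16 over 16 alternatives and passed the threshold in 13 of them. The exceptions were the fit of only the 2 groups compared (adjusted p = 0.0561, limma) and the fits without untreated replicate 1 or without untreated replicate 2. In these fits no probe on the whole array was called for this comparison, so they show no loss particular to *Ncf1*. The decrease relative to untreated cells passed in all 16, at −1.09 to −0.73.

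*Ncf4* encodes p40phox, which binds a phosphoinositide of the phagosome membrane and helps keep the complex there. Its probe lies at chr15:78092903-78092962 on the plus strand of mm9.
Ncf4 probe, bases 1 to 30: tgatgtaagatgcaaacctcctggcccaga
The *Ncf4* level was 15.95 and 15.96 without treatment, 15.81 and 15.93 after LPS, and 15.45 and 15.43 after LPS+USP7i. The inhibitor arrays were again the lowest, by a smaller step than for *Ncf1*. LPS minus untreated was −0.092 (95% interval −0.28 to 0.098, adjusted p = 0.509, limma), and with 75th percentile scaling it turned to 0.44 and passed (adjusted p = 0.0281), which is −0.066 relative to the median of all probes and 0.35 relative to that of probes well above background. With the inhibitor, *Ncf4* fell by 0.43 relative to LPS alone (SE 0.069, adjusted p = 0.0437), a 1.34-fold decrease, by 0.36 in replicate 1 and 0.50 in replicate 2. It fell by 0.52 relative to untreated cells (SE 0.069, adjusted p = 0.0215), a 1.43-fold decrease. Among probes well above background on all arrays, 20.1% fell further than *Ncf4* relative to LPS and 22.8% relative to untreated cells.

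The *Ncf4* decrease relative to LPS lay near the threshold. It kept its direction in 16 of 16 alternatives, at −0.58 to −0.36, but passed in 3 of them. The call was lost when any 1 of the 6 arrays was left out, at differences of −0.49 to −0.36. As for *Cybb*, the fits without an untreated array called no probe at all, and the others held 1 array in a group compared. With the deposited log2 values the *Ncf4* decrease was −0.43 with an adjusted p of 0.221 (limma), the highest of all alternatives, and with the replicate number as a block the adjusted p was 0.0717. Relative to untreated cells, *Ncf4* passed in 9 of 16 alternatives. It passed without either LPS array (adjusted p = 0.0378) and not without untreated replicate 1 (0.103), untreated replicate 2 (0.109), LPS+USP7i replicate 1 (0.0688), or LPS+USP7i replicate 2 (0.0711). Under 75th percentile scaling it was −0.14 with an adjusted p of 0.337, which is −0.69 relative to the median of all probes and −0.25 relative to that of probes well above background.

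The remaining 2 genes encode the small GTPases that switch the complex on. *Rac2* is the form made mainly by blood cells, and *Rac1*, made by nearly all cells, also serves the oxidase of macrophages. Their probes lie at chr15:78391452-78391511 (*Rac2*) and at chr5:144267722-144267781 and chr5:144266757-144266816 (*Rac1*), all on the minus strand of mm9. The *Rac2* level, a mean of 10 spots whose SD was 0.050 to 0.071, was 14.76 and 14.73 without treatment, 14.71 and 14.52 after LPS, and 14.42 and 14.23 after LPS+USP7i. The 3 groups stood in descending order with no overlap, although the spread within a pair was up to 0.20 wide.

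*Rac2* was −0.13 for LPS minus untreated (adjusted p = 0.544), −0.29 for LPS+USP7i minus LPS (95% interval −0.59 to 0.017, adjusted p = 0.244), and −0.42 for LPS+USP7i minus untreated (95% interval −0.73 to −0.12, adjusted p = 0.0999), all from limma. With 75th percentile scaling the first of these turned to 0.45 and passed the threshold (adjusted p = 0.0137), which is −0.054 relative to the median of all probes and 0.36 relative to that of probes well above background. The last of them passed the threshold in 1 of 16 alternatives, and so did the difference from LPS, which was −0.50 (adjusted p = 0.0474) with 75th percentile scaling against adjusted p values of up to 0.501 in the others. A decrease of *Rac2* with the inhibitor of up to 0.59 relative to LPS therefore lies inside the interval and was not resolved by 2 arrays a group.

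The brighter *Rac1* probe read 14.48 and 14.39 without treatment, 14.01 and 14.17 after LPS, and 14.23 and 14.31 after LPS+USP7i. The other *Rac1* probe read 13.94 and 13.90 without treatment, 13.53 and 13.52 after LPS, and 13.66 and 13.36 after LPS+USP7i. On both probes the untreated arrays were the highest, with the LPS arrays below them and no overlap between these groups. LPS minus untreated was −0.35 (95% interval −0.59 to −0.10, adjusted p = 0.0774, limma) and −0.39 (95% interval −0.72 to −0.063, adjusted p = 0.118), so that both intervals lay below 0 and neither probe was called. The dimmer probe passed in 3 of 15 alternatives, which were the fit of only these 2 groups, that without LPS+USP7i replicate 1, and that without LPS+USP7i replicate 2, each with an adjusted p of 0.0360 against up to 0.507 in the others. When the 2 probes were averaged and the adjustment ran over gene names, *Rac1* passed at −0.37 (adjusted p = 0.0418), while over the other alternatives the brighter probe had adjusted p values from 0.0616 to 0.754 and turned to 0.21 with 75th percentile scaling, −0.29 relative to the median of all probes and 0.12 relative to that of probes well above background.

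The *Rac1* probes parted in the comparison with the inhibitor. LPS+USP7i minus LPS was 0.18 (adjusted p = 0.354, limma) on one and −0.012 (adjusted p = 0.994) on the other, a gap of 0.20, and LPS+USP7i minus untreated was −0.16 (adjusted p = 0.396) and −0.40 (adjusted p = 0.128). Neither probe was called in either comparison, though the dimmer one passed for LPS+USP7i minus untreated without LPS+USP7i replicate 1 (−0.55, adjusted p = 0.0397), in 1 of 15 alternatives.

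Counted over the 6 genes, each by its brighter probe, LPS raised 1 and lowered 0. Of all probes, 17.8% were called in either direction (7.09% higher), and of the probes well above background on all arrays, 37.0%. With 75th percentile scaling LPS raised 5 of the 6 genes and lowered 0, in a fit that called 27437 of 55680 probes (21768 higher). For LPS+USP7i minus LPS, 0 were higher and 3 were lower, against 8.45% of all probes called (3.79% lower) and, among probes well above background on all arrays, 16.9% (7.61% lower). For LPS+USP7i minus untreated, 0 were higher and 2 lower, against 13.0% of all probes (7.34% lower) and 27.1% of those well above background (15.5% lower). With 75th percentile scaling 2 were higher and 1 lower, in a fit that called 26542 of 55680 probes (21937 higher and 4605 lower). The median difference of the 6 genes was −0.094, −0.36, and −0.29 in the 3 comparisons, beside −0.15, 0.048, and −0.066 for all probes well above background.

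The groups did not overlap for 6, 6, and 5 of the 6 genes in the same order of comparisons. That is a common outcome with 2 arrays a group, since it held for 57.3%, 49.8%, and 56.3% of all probes and for 79.8%, 66.9%, and 72.7% of those well above background. Each pair of comparisons shares the arrays of 1 group, so the 3 sets of values are not separate evidence.

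**Figure D2:**
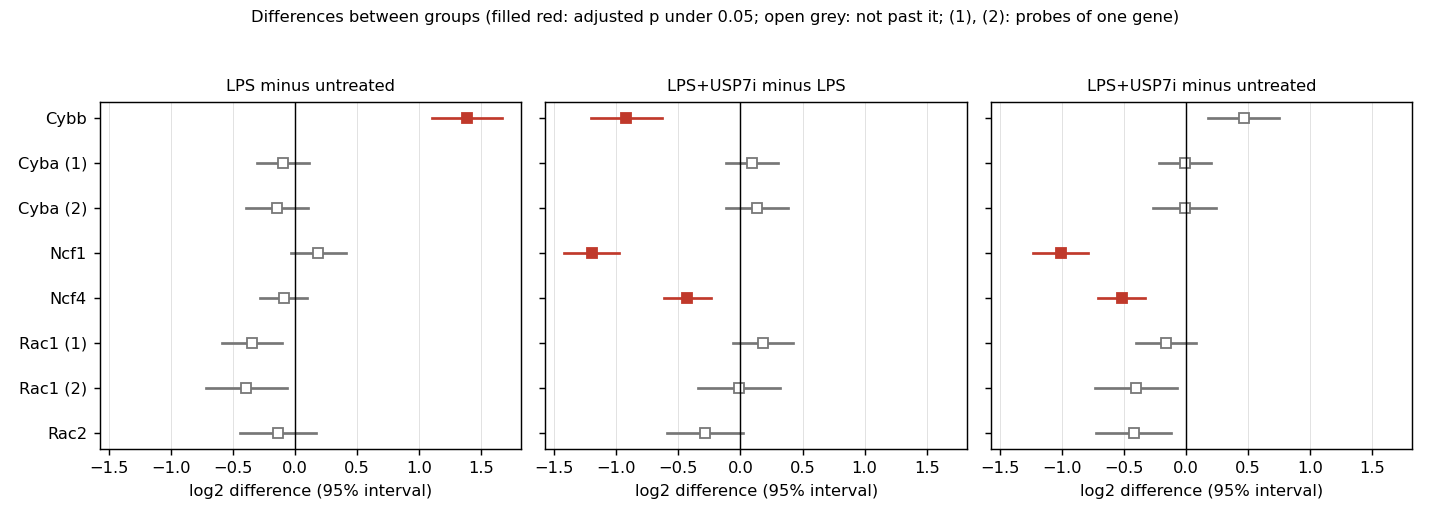
Log2 difference with its 95% interval (horizontal axis) for each probe of the 6 genes in LPS minus untreated, LPS+USP7i minus LPS, and LPS+USP7i minus untreated, with filled red squares for an adjusted p value under 0.05 and open grey squares for the rest. One gene is filled in the first panel (*Cybb*, 1.38), 3 in the second (*Cybb* −0.92, *Ncf1* −1.20, *Ncf4* −0.43), and 2 in the last (*Ncf1* −1.01, *Ncf4* −0.52).

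The 3 decreases with the inhibitor were not equally firm. When only the LPS and LPS+USP7i arrays were fitted, 0 of the 6 genes were called by limma, although all 3 had an unadjusted p value under 0.05, and this fit called 0 probes on the whole array (11257 with an unadjusted p value under 0.05). The call of *Ncf1* held without any 1 of the LPS or LPS+USP7i arrays, and the calls of *Cybb* and *Ncf4* did not. In those fits 1 group compared held 1 array, and the groups with 2 arrays gave the spread. The differences ranged from −1.13 to −0.90 for *Cybb*, from −1.41 to −1.16 for *Ncf1*, and from −0.58 to −0.36 for *Ncf4*. The plot of these 3 genes shows them under each processing.

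**Figure D3:**
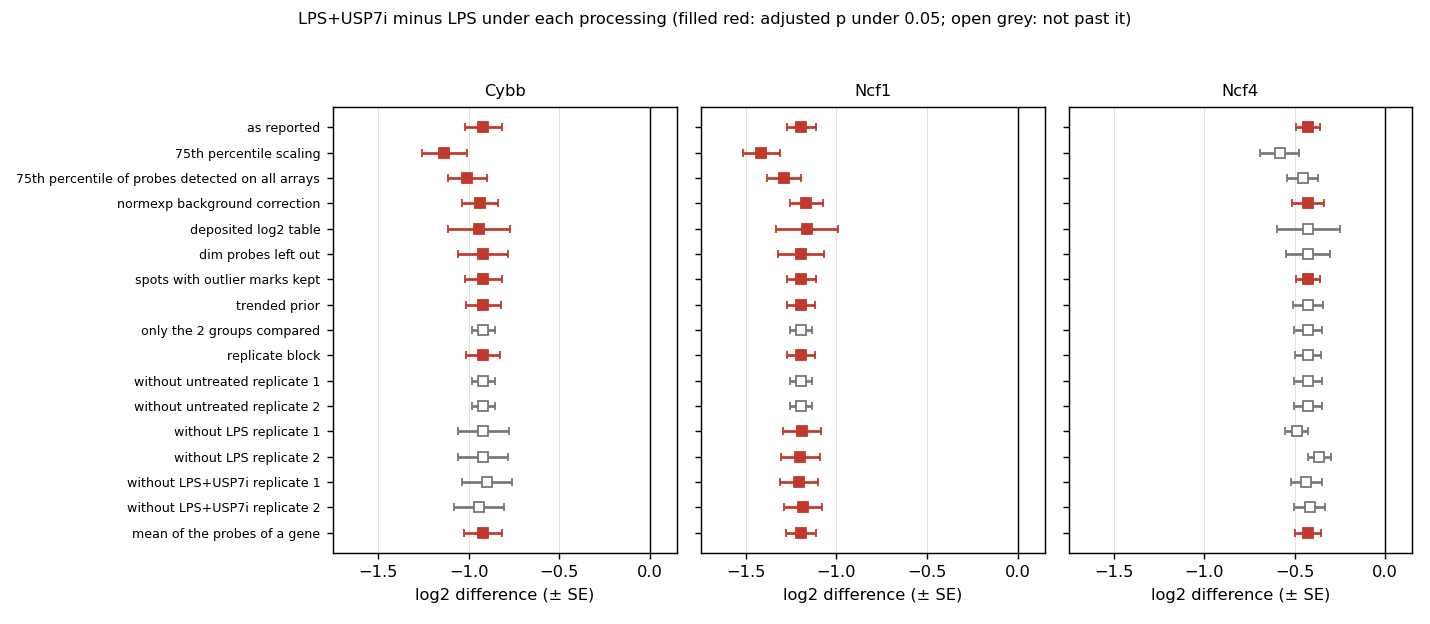
LPS+USP7i minus LPS as a log2 difference ± its SE (horizontal axis) for *Cybb*, *Ncf1*, and *Ncf4* as reported and under the 16 alternative settings (rows), with filled red squares for an adjusted p value under 0.05 and open grey squares for the rest. All squares lie below 0, and *Ncf1* is filled in 13 alternatives, *Cybb* in 9, and *Ncf4* in 3.

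Other genes of the oxidase, among them catalytic homologues, maturation factors, and a proton channel, were read as a list of 12. Of these, 5 were well above background on all arrays, and 5 (*Nox3*, *Nox4*, *Duox1*, *Duoxa1*, and *Duoxa2*) were above it on no array. With LPS, 3 of the 12 were higher (*Nox1*, *Rac3*, and *Duoxa1*, the last not above background) and 0 were lower by limma. With the inhibitor relative to LPS, 1 was higher (*Hvcn1*) and 2 were lower (*Nox1* and *Rac3*). Relative to untreated cells, 3 were higher with LPS+USP7i and 0 lower, among them *Nox3*, which was not above background. The median over the 12 genes was 0.060, −0.13, and 0.11 in the 3 comparisons, and 25% of the list was called in each, against 17.8%, 8.45%, and 13.0% of all probes and 37.0%, 16.9%, and 27.1% of those well above background on all arrays.

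*Nox1*, the catalytic homologue best known from the colon, had the largest differences of that list with LPS and with the inhibitor relative to LPS. Its level was 5.76 and 5.59 without treatment, 9.64 and 9.89 after LPS, and 6.65 and 6.87 after LPS+USP7i. It was far higher on the LPS arrays than on the other 4. LPS raised *Nox1* by 4.09 (SE 0.14, adjusted p = 0.00261), a 17.0-fold increase, and with the inhibitor it fell by 3.01 (SE 0.14, adjusted p = 0.0104), an 8.03-fold decrease. A second *Nox1* probe stood well above background on the LPS arrays and on no other, so only bounds can be given for it, at least 8.62-fold higher in LPS than in untreated cells and at least 6.67-fold lower in LPS+USP7i than in LPS. The decrease passed in 12 of 15 alternatives and the increase in all 15.

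*Rac3*, the Rac form best known from the nervous system, also rose with LPS, by 1.06 (adjusted p = 0.0227), and fell by 1.05 with the inhibitor (adjusted p = 0.0401, past the threshold in 8 of 15 alternatives). *Hvcn1* encodes the voltage-gated proton channel that compensates the charge moved by NOX2. The *Hvcn1* level was 13.17 and 13.43 without treatment, 13.08 and 13.40 after LPS, and 14.12 and 14.21 after LPS+USP7i. Its inhibitor arrays stood above the other 4, with a difference from LPS of 0.92 on the brighter probe (adjusted p = 0.0485, past the threshold in 6 of 15 alternatives) and of 1.08 on the other (adjusted p = 0.0206). *Cybc1*, a chaperone needed for gp91phox and p22phox to mature, was called in no comparison. It was −0.76 for LPS minus untreated (adjusted p = 0.0742, limma, past the threshold in 4 of 15 alternatives) and 0.35 for LPS+USP7i minus LPS (adjusted p = 0.428).

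Exchange factors load Rac with GTP, GTPase-activating proteins turn it off again, and dissociation inhibitors hold it in the cytosol. Of 17 such genes, of which 16 were well above background on all arrays, LPS raised 2 and lowered 4, the inhibitor relative to LPS raised 0 and lowered 3, and LPS+USP7i relative to untreated cells raised 0 and lowered 7. The shares called, 35.3%, 17.6%, and 41.2%, stood beside 37.0%, 16.9%, and 27.1% of the probes well above background and beside 17.8%, 8.45%, and 13.0% of all probes. The medians were −0.37, −0.39, and −0.92. *Arhgap25*, an activating protein that turns Rac off in phagocytes, was the most changed by LPS, at 13.98 and 14.42 without treatment, 11.53 and 11.57 after LPS, and 12.14 and 11.89 after LPS+USP7i. It fell by 2.65 with LPS (SE 0.19, adjusted p = 0.00499) and was 0.47 with the inhibitor relative to LPS (adjusted p = 0.261).

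The exchange factor gene *Vav3* rose by 1.35 with LPS (adjusted p = 0.0266) and fell by 1.69 with the inhibitor (adjusted p = 0.0298, past the threshold in 8 of 15 alternatives). *Tiam1* and *Dock2*, 2 further exchange factors, fell by 0.97 (adjusted p = 0.0276, in 5 of 15 alternatives) and 0.82 (adjusted p = 0.0327, in 7 of 15) with the inhibitor relative to LPS, while a dimmer second *Dock2* probe was −0.23 (adjusted p = 0.767). *Prex1* was −0.70 relative to LPS (adjusted p = 0.0871) and fell by 1.21 relative to untreated cells (adjusted p = 0.0217), and *Dock5* fell by 1.33 relative to untreated cells (adjusted p = 0.0211), calls that held in 11 and 9 of 15 alternatives. *Abr*, an activating protein for Rac, rose by 1.16 with LPS (adjusted p = 0.0217).

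Kinases and lipid kinases phosphorylate p47phox and p40phox or make the phosphoinositide that p40phox binds. Of 13 genes listed for these steps, among them 1 that is no kinase (*Rap1a*, a small GTPase found with the oxidase), with 11 well above background on all arrays, LPS raised 0 and lowered 3, the inhibitor relative to LPS raised 0 and lowered 1, and LPS+USP7i relative to untreated cells raised 0 and lowered 2. The shares called were 23.1%, 7.69%, and 15.4%, beside 37.0%, 16.9%, and 27.1% of probes well above background and 17.8%, 8.45%, and 13.0% of all probes. The medians were −0.31, −0.062, and −0.43. LPS lowered *Pik3c3* by 0.89 (adjusted p = 0.0310) and *Pik3r4* by 0.59 (adjusted p = 0.00743), the catalytic and regulatory parts of the kinase that makes phosphatidylinositol 3-phosphate, and *Akt1* by 0.69 (adjusted p = 0.0373). The call of *Akt1* held in 8 of 15 alternatives, and with 75th percentile scaling its difference was −0.11 (adjusted p = 0.378). *Prkcd*, a protein kinase C that phosphorylates p47phox, was 0.56 lower with the inhibitor than with LPS alone (adjusted p = 0.0401, in 6 of 15 alternatives), and −0.40 on its other probe (adjusted p = 0.126).

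Factors known to act on oxidase genes were read as well. They were PU.1 (*Spi1*), IRF1, IRF8, the coactivator CBP (*Crebbp*), and the NF-κB subunits p65 (*Rela*) and p50 (*Nfkb1*), and all 6 were well above background on all arrays. LPS raised 5 of the 6 and lowered 0, the inhibitor relative to LPS raised 0 and lowered 3, and LPS+USP7i relative to untreated cells raised 3 and lowered 1. Among probes well above background, 37.0% were called with LPS (14.6% higher), 16.9% with the inhibitor relative to LPS (7.61% lower), and 27.1% in the last comparison, and over all probes 17.8%, 8.45%, and 13.0%. The medians were 1.38, −0.77, and 0.44.

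*Irf8* had the largest difference of these 6 genes between LPS+USP7i and LPS. The *Irf8* level was 14.17 and 14.11 without treatment, 15.25 and 15.87 after LPS, and 12.51 and 12.35 after LPS+USP7i. Its inhibitor arrays were below both other groups. It rose by 1.42 with LPS (SE 0.23, adjusted p = 0.0267) and fell by 3.13 with the inhibitor (SE 0.23, adjusted p = 0.0144), an 8.75-fold decrease, and it fell by 1.71 relative to untreated cells (adjusted p = 0.0223). These calls held in 9, 12, and 11 of 15 alternatives.

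*Nfkb1* rose by 3.16 with LPS (adjusted p = 0.00253) and fell by 1.45 with the inhibitor (adjusted p = 0.0134, in 10 of 15 alternatives), and *Rela* rose by 0.99 (adjusted p = 0.00423) and fell by 0.54 (adjusted p = 0.0236, in 7 of 15). *Spi1* stood at 10.57 and 10.49 without treatment, 12.08 and 11.66 after LPS, and 10.98 and 10.76 after LPS+USP7i. It rose by 1.34 with LPS (adjusted p = 0.0162), and its difference of −1.001 with the inhibitor just missed the threshold (adjusted p = 0.0526, past it in 5 of 15 alternatives). *Irf1* rose by 3.90 with LPS (adjusted p = 0.00446) and was −0.51 with the inhibitor on its brighter probe (adjusted p = 0.371), while a dim second probe gave −1.83 (adjusted p = 0.0120). These are levels of the factors' own messages, and binding was not measured.

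**Figure D4:**
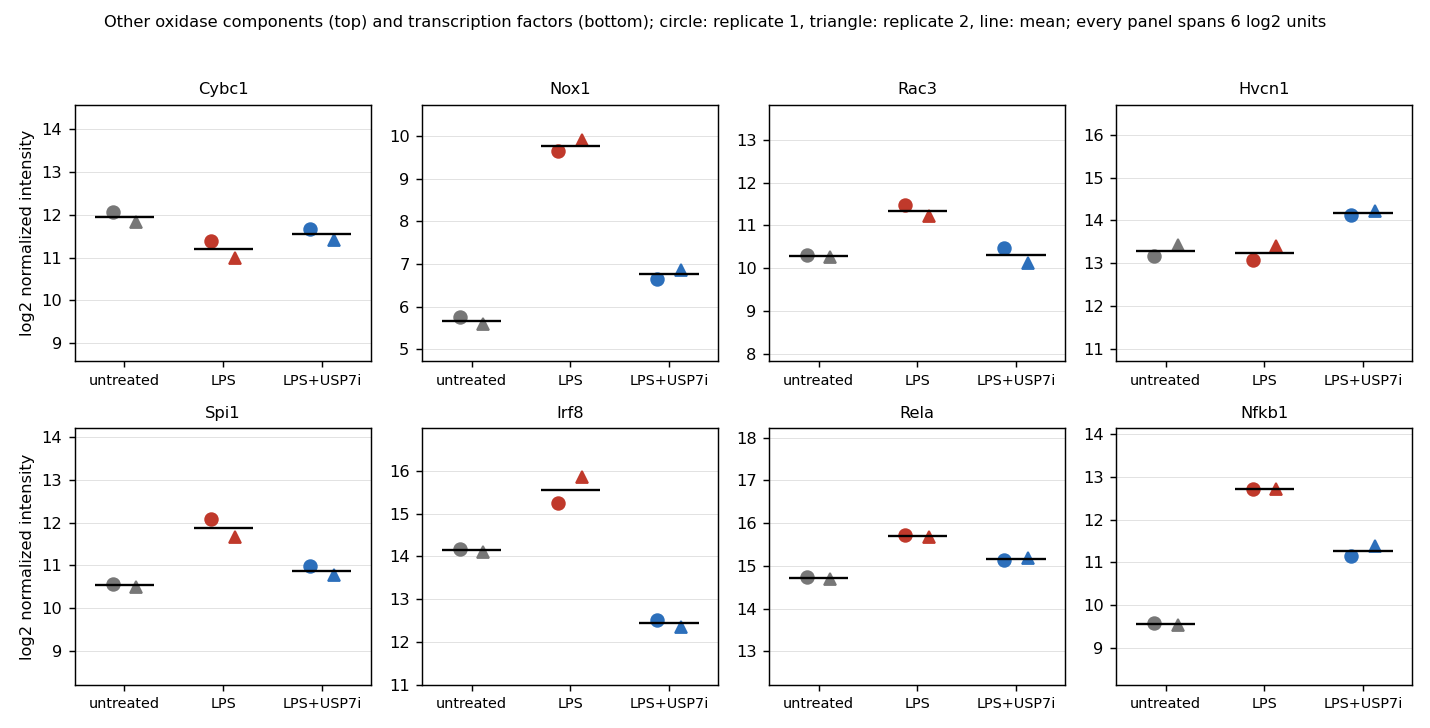
Log2 normalized intensity (vertical axis) of 4 other oxidase components (*Cybc1*, *Nox1*, *Rac3*, *Hvcn1*, top) and 4 transcription factor genes (*Spi1*, *Irf8*, *Rela*, *Nfkb1*, bottom) in the 3 groups, each by its brighter probe, with a circle for replicate 1, a triangle for replicate 2, a line for the mean, and the same span in every panel. *Nox1*, *Rac3*, and all 4 factor genes are highest on the LPS arrays, and *Hvcn1* is highest and *Irf8* lowest on the LPS+USP7i arrays.

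Over these lists and 1 more, of enzymes that use superoxide (53 genes in 5 lists in all), LPS called 18 genes, LPS+USP7i minus LPS 11, and LPS+USP7i minus untreated 17. These are 34%, 20.8%, and 32.1% of the listed genes, beside 37.0%, 16.9%, and 27.1% of probes well above background and 17.8%, 8.45%, and 13.0% of all probes. Leaving out 1 array moved these counts. Without untreated replicate 1 or 2, the LPS count fell, as did the LPS calls over the whole array. For the inhibitor relative to LPS these fits called no probe on the whole array, so none of the listed genes could be called. The LPS count was 11 without either LPS array. The count for the inhibitor relative to LPS was 2 without either LPS array and 4 or 7 without LPS+USP7i replicate 1 or 2. The LPS+USP7i minus untreated count was 6 to 10.

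In the sources used here, promoter sequences from RefSeq on GRCm38.p6 covered 3 of the 6 genes (*Cybb*, *Cyba*, and *Ncf1*). They are printed because *Cybb* and *Ncf1* were lower with the inhibitor and *Cyba* was not called. Each is the 250 bases before the annotated start, 5′ to 3′ on the strand of the gene, at chrX:9469325-9469574, chr8:122432941-122433190, and chr5:134229626-134229875, all minus strand. Capitals mark matches on either strand to GAAANNGAAA, a core of interferon regulatory factor sites, or to GGGNNNNNCC, a core of NF-κB sites.
Cybb promoter: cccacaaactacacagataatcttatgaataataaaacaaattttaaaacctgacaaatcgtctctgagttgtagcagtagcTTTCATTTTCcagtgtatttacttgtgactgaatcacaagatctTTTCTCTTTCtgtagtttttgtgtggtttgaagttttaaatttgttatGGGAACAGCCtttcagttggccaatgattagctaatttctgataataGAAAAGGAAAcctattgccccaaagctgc
Ncf1 promoter: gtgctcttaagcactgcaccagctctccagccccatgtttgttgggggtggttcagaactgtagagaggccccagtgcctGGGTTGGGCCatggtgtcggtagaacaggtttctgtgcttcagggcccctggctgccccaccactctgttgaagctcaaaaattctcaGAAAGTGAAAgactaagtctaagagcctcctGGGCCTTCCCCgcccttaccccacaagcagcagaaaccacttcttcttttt
Cyba promoter: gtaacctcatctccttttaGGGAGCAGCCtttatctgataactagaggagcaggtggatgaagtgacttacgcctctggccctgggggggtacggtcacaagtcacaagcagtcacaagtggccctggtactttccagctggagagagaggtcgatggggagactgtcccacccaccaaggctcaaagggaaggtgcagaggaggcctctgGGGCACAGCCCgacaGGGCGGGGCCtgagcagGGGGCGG
The *Cybb* window held GAAANNGAAA at 3 places, at −168 to −159, −124 to −115, and −29 to −20 from the start, the *Ncf1* window held it once, at −82 to −73, and the *Cyba* window held none.

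Of 32851 windows that run from 250 bases before a start to 50 after, 3.44% held GAAANNGAAA, 50.8% held GGGNNNNNCC, and 28.3% held GAGGAA, a core of PU.1 sites. GGGNNNNNCC stood once in the *Cybb* window, at −76 to −67. In *Ncf1* it had matches at −170 to −161, at −51 to −42 on both strands, at −50 to −41, which overlaps these, and at 12 to 21. In *Cyba* it had 5 matches, of which those at −39 to −30 and −38 to −29 overlap each other and that at −7 to 3 crosses the start, so that the printed sequence ends inside it. GAGGAA was found in the *Cybb* window alone among the 3, on the opposite strand at 10 to 15 after the start (capitals in the bases from −10 to 20, chrX:9469305-9469334).
Cybb around the start: ccaaagctgctgttttcatTTCCTCatcag
A match says only that these letters are there, and none of these sites was tested for binding.

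Markers of other cells that express the oxidase were read on the same arrays. Of 9 neutrophil markers, 6 were well above background on all arrays, *Retnlg* and *Cxcr2* were above it on no array, and 0 were called by limma in any comparison. In LPS minus untreated, LPS+USP7i minus LPS, and LPS+USP7i minus untreated, 37.0%, 16.9%, and 27.1% of probes well above background were called. Over all probes the shares were 17.8%, 8.45%, and 13.0%. The summed level of the neutrophil markers (log2) was 12.36 and 12.76 without treatment, 12.52 and 13.51 after LPS, and 12.60 and 13.25 after LPS+USP7i. It was thus higher in replicate 2 of each group and overlapped between groups. Its members differed in this, since *S100a8*, *S100a9*, *Elane*, *Camp*, and *Ltf* were higher in replicate 2 of every group and *Ly6g* and *Mpo* in replicate 1. *S100a9*, for example, was at 7.68 and 10.72 without treatment, 9.54 and 12.38 after LPS, and 8.35 and 11.57 after LPS+USP7i. The part of neutrophil RNA in the results for the oxidase genes was not tested. The 4 B cell markers summed to 10.03 and 9.36, 10.15 and 9.02, and 9.42 and 8.13 in the same order, with 2 on all arrays and 0 called.

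Of the 8 macrophage markers, LPS raised 1 (*Cd14*, by 1.69, adjusted p = 0.00518) and lowered 1 (*Itgam*, by 0.66, adjusted p = 0.0233), LPS+USP7i relative to untreated cells raised 0 and lowered 1 (*Fcgr1*), and the inhibitor relative to LPS raised 0 and lowered 2, *Cd14* by 1.31 (adjusted p = 0.0184) and *Fcgr1* by 1.60 (adjusted p = 0.0317). In these comparisons 37.0%, 27.1%, and 16.9% of probes well above background were called, and 17.8%, 13.0%, and 8.45% of all probes. The decreases of *Cd14* and *Fcgr1* relative to LPS passed the threshold in 10 and 8 of 15 alternatives. The other *Itgam* probes were not called with LPS, at −0.48 (adjusted p = 0.228) and −0.0019. With 75th percentile scaling *Itgam* was at −0.22 for LPS minus untreated (adjusted p = 0.100). The summed level of the 8 markers was 19.48 and 19.46 without treatment, 19.46 and 19.51 after LPS, and 19.26 and 19.16 after LPS+USP7i. The sum is of unlogged intensities, so the brightest markers weigh most in it. Its members differed. Relative to LPS, the means of *Cd14* (17.44 to 16.13), *Csf1r*, *Adgre1*, *Fcgr1*, and *Mertk* were lower with the inhibitor. Those of *Cd68* (17.13 to 17.29), *Lyz2* (17.02 to 17.17), and *Itgam* (12.39 to 12.70) were higher. The part of macrophage RNA in the results for the oxidase genes was not tested.

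The genes with the most similar profiles over the 6 arrays were looked up among 11654 genes well above background on all arrays, by the root mean square difference of log2 values after each profile was centered on its own mean. For *Cybb* they were *Rictor* (0.085), *Nlgn2* (0.088), and *Dcp1a* (0.088), and for *Ncf1* they were *Capn5* (0.052), *Usp21* (0.10), and *Cabin1* (0.10). For *Ncf4* they were *Smarcc2* (0.040), *Tbcd* (0.041), and *Chd4* (0.044), and for *Rac2* they were *Lmf2* (0.038), *Vamp8* (0.046), and *Sdc3* (0.053). *Rac1* lay closest to *Rpl7* (0.020), *Zfp638* (0.024), and *Rpl35a* (0.028), and *Cyba* to *Cct4* (0.026), *Eif3g* (0.026), and *Tma7-ps* (0.033). None of the 6 genes was among the 3 nearest of another, and with 6 arrays that share a slide these are descriptions of likeness in these samples.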

How the data were processed

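BMDMs were profiled on 1-color Agilent mouse arrays after labeling RNA with Cy3. What the authors deposited were scanner files holding background-corrected spot intensities from the Feature Extraction software (version 10.7.3.1, mm9 annotation) and a table of normalized log2 values; the methods name limma with quantile normalization and an adjusted p value of 0.05. Here the log2 processed signal was quantile-normalized, spots marked as outliers were left out, spots of a probe were averaged, and limma (version 3.58.1, R 4.3.3) was fitted to all 6 arrays with 3 residual degrees of freedom and Benjamini-Hochberg adjustment over 55680 probes. The fit was also run on simulated data, with independent noise and changes larger than those of the oxidase genes. That run therefore says nothing about changes of their size. Probes were named through RefSeq (26756 by accession, 3824 by symbol, 639 by synonym) or kept the name in the file (24462). A gene with several probes was counted by its brightest. The number of arrays limits precision.

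The text names every probe of the 6 genes and, from each other list and comparison, up to 3 genes with the largest difference among those past the threshold and well above background on both arrays of a group compared; *Spi1*, *Cybc1*, *Crebbp*, *Duoxa1*, and *Nox3* were named after their values were seen. The 6 genes, the lists, and the markers were chosen with earlier results of these data known, and some genes are not reported here. Nothing in the sources used here ties a replicate number to one experiment across groups, and p values measure only the spread between these samples. Alternatives were 75th percentile scaling, the deposited table, normexp correction (offset 50), a trended prior, a filter on dim probes, keeping outlier spots, fits of 2 groups, a replicate block, leaving out each array, the mean over probes, and a minimum log2 difference of 1.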

Additional observations from a re-analysis of the deposited data

How the results depend on the processing

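The count of called oxidase genes for LPS minus untreated was 1, and it was 5 with 75th percentile scaling, 2 with scaling to the 75th percentile of probes detected on all arrays (chosen after seeing the data), and 2 with probes averaged (1 higher, 1 lower). For LPS+USP7i minus LPS it was 3, against 0 in a fit of only the 2 groups, 1 with a minimum log2 difference of 1, and 0 to 1 without 1 array. For LPS+USP7i minus untreated it was 2, against 4 with normexp, 1 with the deposited table, 1 with the minimum difference, and 1 to 2 without 1 array, and 3 with dim probes left out, with the trended prior, and with 75th percentile scaling, under which *Cybb* and *Cyba* were higher and *Ncf1* lower; in the first comparison it was 1 without any array. Over the 5 lists, the counts of 18, 11, and 17 became 10, 6, and 9 with the minimum difference, 0 and 10 with the 2-group fit for the second and the last, and 6 to 15, 0 to 7, and 6 to 10 without 1 array. For LPS+USP7i minus LPS, the 2-group fit and the fits without an untreated array called no probe on the whole array. With a replicate block, 1, 2 (*Cybb* and *Ncf1*), and 2 oxidase genes were called. Deviations of same-numbered samples correlated at 0.47, 0.40, and 0.42 between the groups, so samples with the same number deviated together. They also shared a slide column, a shared experiment and a shared column cannot be told apart, and with only 2 numbers the pairing was not settled.

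Of 378 values of single probes under the alternatives, 307 kept direction and side of the threshold, 14 passed it newly in the same direction, 30 no longer passed, and 27 turned sign (6 of them past the threshold in the new direction, all with 75th percentile scaling), all of the latter among *Cyba*, *Ncf4*, *Rac1*, and *Rac2* values that had not been called. For LPS minus untreated with 75th percentile scaling these were 0.44 and 0.48 (*Cyba*), 0.44 (*Ncf4*), 0.21 and 0.15 (*Rac1*), and 0.45 (*Rac2*), and with the percentile of detected probes 0.18 and 0.22, 0.18, and 0.19 for *Cyba*, *Ncf4*, and *Rac2*. For LPS+USP7i minus LPS they were −0.031 and −0.077 (*Cyba*) and −0.0094 (*Rac1*) with the former scaling, and for the other *Rac1* probe 0.015 with normexp, 0.042 with the deposited table, and 0.14 without LPS+USP7i replicate 2 (−0.16 to 0.14 without 1 array). For LPS+USP7i minus untreated they were 0.41 and 0.40 (*Cyba*) and 0.20 (*Rac1*) with 75th percentile scaling, 0.28, 0.27, and 0.069 with that of detected probes, 0.048 for the brighter *Cyba* probe without untreated replicate 2 and without LPS+USP7i replicate 2 (−0.062 to 0.048 without 1 array), and for the other *Cyba* probe 0.015 with normexp, 0.038 with the deposited table, and 0.087 without LPS+USP7i replicate 2 (−0.11 to 0.087 without 1 array). The 75th percentile scalings put the median of all probes at 0.51 and 0.25 for LPS minus untreated and at 0.55 and 0.41 for LPS+USP7i minus untreated, and that of probes well above background at 0.091 and −0.17 and at 0.11 and −0.024 (−0.15 and −0.066 as reported). Over all probes they turned the LPS split from 3948 higher and 5947 lower to 21768 and 5669, and to 17953 and 8042. The LPS+USP7i minus untreated split went from 3147 higher and 4086 lower to 21937 and 4605, and to 19417 and 5822. The cause of these moves was not tested.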

Other observations

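Among 5 enzymes that use superoxide or its product, of which 4 were well above background on all arrays, LPS raised 1 and lowered 0, the inhibitor relative to LPS raised 1 and lowered 0, and LPS+USP7i relative to untreated cells raised 1 and lowered 0, in each case 20% of the list against 37.0%, 16.9%, and 27.1% of the probes well above background and 17.8%, 8.45%, and 13.0% of all probes, with medians of 0.0018, −0.0040, and 0.043. *Sod2*, the mitochondrial dismutase, stood at 14.14 and 14.16 without treatment, 17.42 and 17.42 after LPS, and 16.39 and 16.79 after LPS+USP7i. It rose by 3.27 with LPS (adjusted p = 0.00319, limma) and was −0.84 with the inhibitor relative to LPS (adjusted p = 0.0549). *Cat*, which breaks down hydrogen peroxide, stood at 10.12 and 9.85 after LPS and at 11.06 and 11.15 after LPS+USP7i, an increase of 1.12 (adjusted p = 0.0301, past the threshold in 8 of 15 alternatives). T cell, erythroid, and fibroblast markers (3, 3 found, and 4 genes) had 0 calls by limma in any comparison, against the shares of all probes given above. Only 1, 0, and 0 of them were well above background on all arrays, so the absence of calls says little about these cells.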
